A study of Rattus norvegicus with 19 samples.

Results

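The effect of heart failure with preserved ejection fraction (HFpEF) on rat heart RNA was measured at week 5 and at week 9, and the difference between these effects is described here. It used 12 of the 19 samples of the series, the 3 libraries each of control 5w, HFpEF, control 9w and untreated, chosen by their labels. For each gene the log2 disease effect at week 5 (HFpEF minus control 5w) was subtracted from that at week 9 (untreated minus control 9w). A positive difference means that the effect was more positive at week 9, and a negative difference that it was more negative.

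All 12 libraries were RNA-seq of hearts of Sprague-Dawley rats, 24 weeks old at the start, with the strain label Wildtype and the sex label Male. HFpEF and untreated rats drank L-NAME, a blocker of nitric oxide synthase, at 0.5 g/L and ate a diet with 60% of its calories from fat for 5 weeks. Untreated rats then received the vehicle, phosphate-buffered saline, by gavage for 4 weeks, while HFpEF rats were taken at week 5. Control rats had no L-NAME and, per the study's text, normal chow. The labels do not say whether L-NAME and the diet went on during those 4 weeks, though the study's text speaks of induction over 9 weeks. Control 5w libraries held 11628931, 13017754 and 12616559 counts, and HFpEF libraries 12205327, 9386791 and 10857636. Control 9w libraries held 8141045, 7803050 and 9409670 counts, and untreated libraries 9951011, 10142209 and 9640990. The labels give no preparation dates, so the week cannot be told apart from any difference in how the hearts of each week were collected and sequenced.

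A disease effect has a diseased and a control side, so it can change between time points because either group changed. In the working heart, energy comes mostly from fatty acids and glucose burned in mitochondria, and contraction depends on sarcomere proteins and on calcium cycling. Stress hormones, the body clock, interferons and inflammatory signals all set heart gene expression within hours, and small vessels, fat, blood and nerve contribute RNA to any piece of heart tissue.

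Several libraries stood apart or went against their labels. Eif2s3y, a translation factor gene on the Y chromosome, had 0 counts in HFpEF 1, HFpEF 3 and all 3 untreated libraries, although these were labelled male. HFpEF 2 had 855 counts of it, control 5w libraries 1204, 1321 and 1211, and control 9w libraries 654, 613 and 741. Ddx3, an RNA helicase gene, was absent from the same 5 libraries, with 1084 counts in HFpEF 2 and 1348, 1338 and 1468 in control 9w. The median over the 4 tested sex-linked genes was -4.66 (0.56 without HFpEF 2), or -2.39 with genes at 0 in a group set to their bound. LOC100911498 was high in those 5 of the 12 libraries only, with 27077, 1 and 17699 counts in HFpEF and 13032, 26816 and 14759 in untreated, against 12, 1 and 4 in control 5w and 3, 1 and 4 in control 9w. At week 9 control libraries were at least 255-fold higher than untreated for Eif2s3y and at least 528-fold higher for Ddx3, against a floor of 3 counts per library. The Ddx3 difference was called with all libraries and was the only call among those 4 genes. Without HFpEF 1 or HFpEF 3 there were 2 calls, and without each of the other 10 libraries 0. The histocompatibility gene RT1-CE16 had 1, 0 and 0 counts in control 5w and 3, 1 and 3 in HFpEF, but 922, 825 and 913 in control 9w and 583, 684 and 616 in untreated. RT1-Bb had 0 counts in all 6 libraries of week 5, against 195, 147 and 183 in control 9w and 129, 311 and 104 in untreated. Both EMPA libraries of the series had 0 counts of the 2 genes as well. Alleles of these genes differ between rat lines, and the labels give the same strain throughout. With a term for libraries without Eif2s3y in the model 1246 genes were called for the difference, with 410 lost, 1 gained and 0 reversed disease effects, and the week-9 effect was called for 2 genes in place of 113. HFpEF was the only group with both kinds of library, so this term compared HFpEF 2 with HFpEF 1 and HFpEF 3. In that fit HFpEF 2 alone gave the week-5 effect, and HFpEF 1 and HFpEF 3 alone entered the difference. Changes of class with the term therefore rest on 1 library. All untreated libraries lack Eif2s3y and no control 9w library does, so the week-9 disease effect cannot be told apart from this difference between libraries. HFpEF 1 and HFpEF 3 lack it as well and no control 5w library does. The week-5 effect, on which the lost class rests, therefore cannot be fully told apart from it either.

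Tissue markers also differed among libraries of a group. All 10 ventricular cardiomyocyte markers were counted in each of the 12 libraries, as the tissue label heart would have it, and Myh6, the main heavy chain of adult rat ventricle, had the highest mean, although Actc1 was above it in control 5w, HFpEF 1 and HFpEF 3. In normalized CPM, the unit of all levels below, their sum was 83933, 41731 and 45559.5 in control 5w, 13439, 20262 and 36069 in HFpEF, 35179.9, 41093 and 36550.2 in control 9w and 61692, 17308 and 56866 in untreated. HFpEF 1 and untreated 2 were the lowest, and control 5w 1 was the highest. Atrial cardiomyocyte markers summed to 4849, 8791 and 7105 in control 5w, 3702, 1108 and 3477 in HFpEF, 6480.4, 925 and 26311 in control 9w and 1347, 16418 and 1794 in untreated. The atrial light chain gene Myl4 was at 6.41, 33.8 and 29.9 in control 5w, 10.2, 4.95 and 8.40 in HFpEF, 305, 2.95 and 1381 in control 9w and 4.33, 1597 and 4.85 in untreated. Control 9w 1, control 9w 3 and untreated 2 were high in Myl4 and the other 9 libraries low. The labels say heart and the study's methods left ventricles, and the part of atrial tissue was not tested. Results are given without such libraries where a call changed.

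A gene was called when its Benjamini-Hochberg adjusted p from edgeR was under 0.05 and its log2 value was at least 1 in size. Of 12388 genes tested, 1489 were called for the difference of disease effects, which is 12.0% of them. The difference was positive for 787 (6.35%) and negative for 702 (5.67%). The disease effect itself was called for 1076 genes at week 5 (8.69%; 530 up and 546 down) and for 113 at week 9 (0.912%; 42 up and 71 down). Without control 9w 2 the difference was called for 975 genes, without untreated 1 for 877 and without untreated 2 for 2241. The week-9 effect was called for 21 genes without control 9w 1, 7 without control 9w 2, 14 without untreated 1, 28 without untreated 3 and 413 without untreated 2. A set of 763 genes was called for the difference whichever of the 12 libraries was left out. RNA was extracted from whole tissue, so fewer cells of a type and less RNA per cell cannot be told apart.

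The same difference can be split into what happened in the controls and in the diseased rats, since it equals the week effect in disease (untreated minus HFpEF) less that in controls (control 9w minus control 5w). The controls changed more. Between week 5 and week 9, 1817 genes were called in controls (14.7%; 924 up and 893 down) and 24 in diseased rats (0.194%; 14 up and 10 down). The control count was 1206 without control 9w 2. The diseased count was 4 without HFpEF 1, 260 without HFpEF 2, 10 without HFpEF 3, 181 without control 5w 1, 14 without control 5w 2 and 9 without control 5w 3. It was 8 without control 9w 1, 6 without untreated 1 or untreated 3, and 933 without untreated 2, which is the library with the low ventricular and high atrial sums. Genes with a positive difference had a median week effect of -1.03 in controls and 0.62 in diseased rats. For those with a negative difference the medians were 1.41 and -0.30, against -0.04 and -0.01 over all tested genes.

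Called genes were sorted by the weeks in which the disease effect was itself called. The effect was lost, meaning called at week 5 and not at week 9, for 721 genes, gained for 75, reversed for 12, and called in neither week for 681. No gene was called in the same direction in both weeks and for the difference. Of the lost genes 409 had a positive difference, with median effects of -1.48 at week 5 and 0.47 at week 9, so genes low in disease at week 5 were near or above control at week 9. The other 312 had medians of 1.63 and -0.52. The medians over all tested genes were 0.02 and 0.01. In 104 lost genes, 11 gained and 57 called in neither week, the estimates had opposite signs and a size of at least 1 in both weeks. The lost count ranged from 496 to 792 over the fits that left out 1 library. The gained count was 19 without control 9w 1, 6 without control 9w 2, 10 without untreated 1, 20 without untreated 3 and 213 without untreated 2. The plot of effects by week shows these classes.

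**Figure D1:**
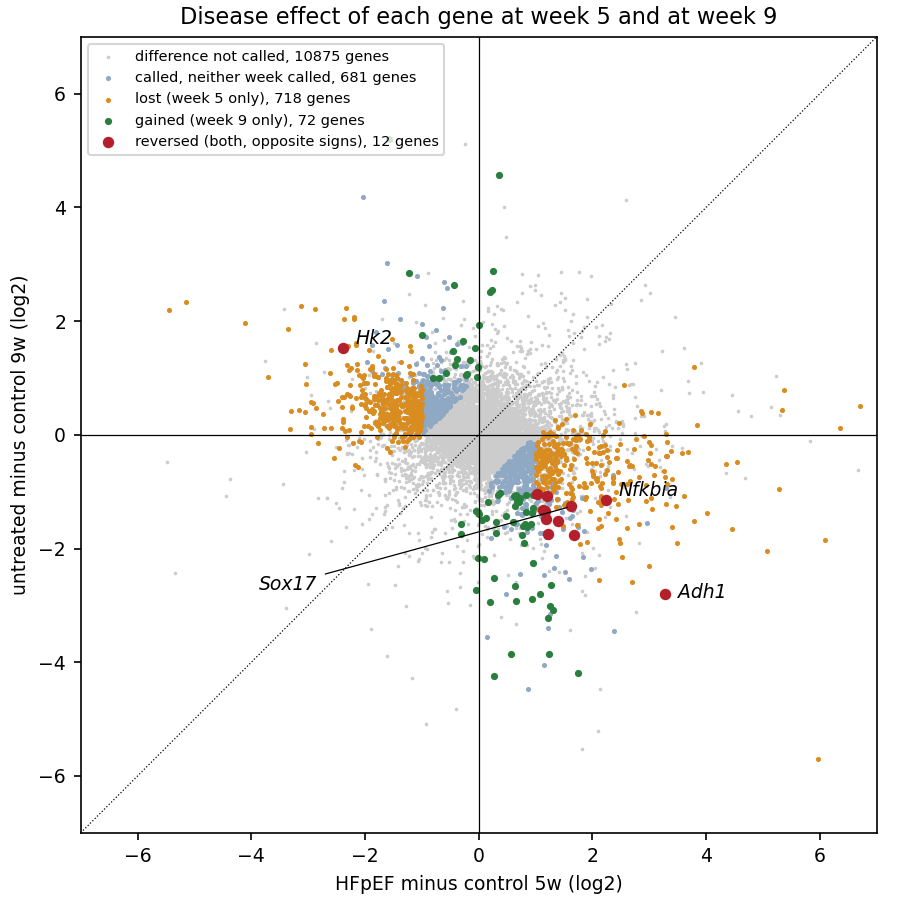
Disease effect of each tested gene at week 5 (horizontal axis, HFpEF minus control 5w, log2) and at week 9 (vertical axis, untreated minus control 9w, log2), colored by class, with points on the dotted line having equal effects. The lost genes spread along the horizontal axis, the gained genes along the vertical axis, and 11 of the 12 reversed genes lie at the lower right, with Hk2 at the upper left; 30 genes with a group at 0 counts and 2 outside the axes are not drawn.

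Reversed effects involved 12 genes, of which 11 were high in disease at week 5 and low at week 9. Sox17, a transcription factor of arterial endothelium, was at 27.04, 24.5 and 26.5 in control 5w, 63.9, 89.6 and 88.2 in HFpEF, 247, 251 and 148 in control 9w and 88.5, 91.6 and 89.8 in untreated. Disease libraries were all above control at week 5 and all below it at week 9, with HFpEF and untreated at about the same level and control 9w far above control 5w. Its disease effects were 1.63 at week 5 (adjusted p 0.00019) and -1.26 at week 9 (adjusted p 0.0068), a difference of -2.89 ± 0.25 (SE; adjusted p 8.2e-05). Sox17 was reversed in all 12 fits that left out 1 library. With the term for libraries without Eif2s3y, where HFpEF 2 alone gave the week-5 effect, Sox17 was lost and no gene was reversed. Nfkbia, the inhibitor that holds NF-kB in the cytoplasm, was at 90.3, 84.6 and 91.8 in control 5w, 393, 359 and 506 in HFpEF, 765, 863 and 527 in control 9w and 290.2, 355 and 323 in untreated. As for Sox17, disease and control did not overlap in either week and control 9w was the highest group. The effects were 2.24 at week 5 (adjusted p 0.0002) and -1.15 at week 9 (adjusted p 0.029), and the difference was -3.39 ± 0.34 (SE; adjusted p 0.00026).

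Hk2, which makes the hexokinase that traps glucose in muscle, was the only reversed gene with a positive difference. It was at 77.4, 83.1 and 74.7 in control 5w, 19.02, 8.80 and 17.2 in HFpEF, 6.88, 6.76 and 11.4 in control 9w and 30.9, 15.9 and 25.9 in untreated. Control 5w was high, the other 3 groups were low, and untreated was wholly above control 9w. The effects were -2.38 at week 5 (adjusted p 0.0004) and 1.53 at week 9 (adjusted p 0.025), a difference of 3.91 ± 0.43 (SE; adjusted p 0.00034). Adh1, an alcohol and retinol dehydrogenase, was at 10.2, 1.09 and 1.67 in control 5w, 53.5, 46.1 and 23.1 in HFpEF, 46.6, 26.6 and 31.2 in control 9w and 5.91, 4.71 and 4.43 in untreated. HFpEF and control 9w were high while control 5w and untreated were low, the week effect being 3.04 in controls and, not called, -3.03 in diseased rats (adjusted p 0.058). Its effects were 3.28 at week 5 (adjusted p 0.0042) and -2.79 at week 9 (adjusted p 0.034), a difference of -6.07 ± 0.87 (SE; adjusted p 0.001). Adm, the vasodilator peptide adrenomedullin, was at 14.98, 11.3 and 11.8 in control 5w, 22.1, 26.9 and 28.1 in HFpEF, 44.4, 56.8 and 43.5 in control 9w and 22.4, 30.4 and 17.6 in untreated. Disease and control did not overlap in either week, and control 9w was the highest. The effects were 1.02 at week 5 (adjusted p 0.0039) and -1.04 at week 9 (adjusted p 0.02) and the difference was -2.06 ± 0.27 (SE; adjusted p 0.00073).

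The other 7 reversed genes all had a negative difference, and for each of them HFpEF was above control 5w and untreated below control 9w. They were Tinagl1 (-3.44), a matrix protein of vessels, Dpep1 (-2.95), a dipeptidase, Syndig1 (-2.91), Hyal3 (-2.66), a hyaluronidase, Mgst2 (-2.51), a glutathione transferase, Fmo2 (-2.47), a monooxygenase, and Slc28a2 (-2.28), a nucleoside carrier. Mean CPM of Tinagl1 were 42.6 in control 5w, 136.0 in HFpEF, 335 in control 9w and 98.5 in untreated. Over the 11 genes the median week effect was 2.27 in controls and -0.53 in diseased rats. The difference was called for all 12 genes in each of the 12 fits without a library, but the class changed for all except Sox17. Without control 9w 1, control 9w 2 or untreated 1, Sox17 alone was reversed, and without untreated 3 Sox17 and Hyal3 were, the others being lost. Without other libraries Adm was gained (control 5w 2, control 5w 3, HFpEF 2, HFpEF 3), as were Dpep1 (each of control 5w and HFpEF), Syndig1 (control 5w 1, control 5w 2) and Fmo2 (HFpEF 2). Syndig1 was lost without HFpEF 3, and Mgst2 was lost without HFpEF 1 and called in neither week without control 5w 2, control 5w 3, HFpEF 2 or HFpEF 3. The number of reversed genes was 23 without HFpEF 1, 25 without control 9w 3 and 146 without untreated 2.

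Gained effects were found for 75 genes, 51 with a negative difference and 24 with a positive difference. The negative ones had median effects of 0.65 at week 5 and -1.57 at week 9, and the positive ones -0.25 and 1.59. Top2b, a DNA topoisomerase of resting cells, was at 126, 135 and 133 in control 5w, 133, 124 and 133 in HFpEF, 353, 374 and 294 in control 9w and 133, 143 and 122 in untreated. Control 9w was high and the other 3 groups were level with each other. Its effect was -0.02 at week 5 and -1.36 at week 9 (adjusted p 3.3e-05), a difference of -1.34 ± 0.15 (SE; adjusted p 0.00039). Bcl6, a repressor of inflammatory genes, was at 22.9, 29.9 and 24.4 in control 5w, 51.7, 46.2 and 37.5 in HFpEF, 67.8, 47.1 and 65.4 in control 9w and 18.4, 26.1 and 16.3 in untreated. HFpEF was above control 5w, untreated was at or below the level of control 5w, and control 9w lay at and above the level of HFpEF. The effects were 0.81 at week 5 (adjusted p 0.012) and -1.56 at week 9 (adjusted p 0.0044), a difference of -2.37 ± 0.28 (SE; adjusted p 0.00039). Both genes were gained in all 12 fits without a library. With the term for libraries without Eif2s3y Top2b was the only gained gene, and Bcl6 was called in neither week.

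Nr4a2, a nuclear receptor switched on by stress signals and chosen after its values were seen, was at 5.37, 12.03 and 11.1 in control 5w, 12.9, 7.61 and 12.2 in HFpEF, 10.5, 9.35 and 13.96 in control 9w and 50.2, 86.4 and 55.6 in untreated. Untreated was higher than all 9 other libraries, which overlapped each other. Its effects were 0.20 at week 5 (adjusted p 0.67) and 2.50 at week 9 (adjusted p 0.0044), a difference of 2.31 ± 0.43 (SE; adjusted p 0.0039), and it was gained in all 12 fits, but called in neither week with the term for libraries without Eif2s3y. Slc27a2, a fatty acid transporter of liver and kidney, had 8, 8 and 12 counts in control 5w, 5, 2 and 1 in HFpEF, 0 in all control 9w and 59, 63 and 39 in untreated libraries. Untreated was thus at least 15.3-fold higher than control 9w. The difference had an adjusted p of 0.0039. The class was gained except without control 9w 1, control 9w 2 or untreated 1, or with the Eif2s3y term, when neither week was called. RT1-N2, a histocompatibility gene with 0 counts in control 9w, was at least 2.62-fold higher in untreated, with 8, 13 and 7 counts, and had 16, 19 and 11 counts in control 5w and 33, 24 and 19 in HFpEF. Its adjusted p was 0.019, and it was called in neither week without control 9w 1, control 9w 2, untreated 1 or untreated 3.

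Extl3, Mfhas1, Cdk17 and Lpin3 were also among the gained genes with the smallest p. Extl3, which starts heparan sulfate chains, was at 40.6, 49.97 and 45.6 in control 5w, 31.4, 21.5 and 25.1 in HFpEF, 17.6, 12.2 and 16.5 in control 9w and 35.8, 31.7 and 25.1 in untreated. All control 9w libraries were below the others, and untreated overlapped HFpEF. The differences were 1.80 ± 0.26 (SE; adjusted p 0.001) for Extl3 and 1.70 ± 0.27 (SE; adjusted p 0.002) for Mfhas1, a regulator of inflammation. Their week-9 effects were 1.00 and 1.00, at the limit of a call. Extl3 was called in neither week without control 5w 1, control 9w 1, control 9w 2, untreated 1, untreated 2 or any HFpEF library. Mfhas1 was called in neither week without control 5w 1, untreated 1, untreated 3 or any control 9w library. Cdk17, a kinase, and Lpin3, a lipid phosphatase, had differences of -1.70 ± 0.21 (SE; adjusted p 0.00052) and -2.49 ± 0.34 (SE; adjusted p 0.00094), with week-9 effects of -1.05 and -1.57. Cdk17 was called in neither week without control 9w 2 or untreated 1. Lpin3 was called in neither week without those libraries and was reversed without control 5w 2 or control 5w 3.

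Among lost effects, Sgk1, Ltk and Hcn4 were in the set with the smallest p. Sgk1, a kinase induced by corticosteroids and insulin, was at 50.1, 61.4 and 61.3 in control 5w, 251, 221 and 282 in HFpEF, 479, 536 and 330.2 in control 9w and 219.8, 229.8 and 275 in untreated. Control 5w was low, HFpEF and untreated were at the same level, and control 9w was highest, with no overlap between disease and control in either week. The effects were 2.12 at week 5 (adjusted p 0.00018) and -0.89 at week 9 (adjusted p 0.046), a difference of -3.02 ± 0.30 (SE; adjusted p 0.00026); the class was reversed without control 9w 3. Ltk, a receptor tyrosine kinase, was at 0.0942, 0.0776 and 0.239 in control 5w, 9.40, 3.76 and 4.20 in HFpEF, 6.20, 5.66 and 3.79 in control 9w and 2.11, 3.90 and 2.00 in untreated. Control 5w was close to 0 and all other libraries were far higher, with untreated 2 inside the ranges of HFpEF and control 9w. Its effects were 5.27 at week 5 (adjusted p 0.00018) and -0.95 at week 9 (adjusted p 0.22), a difference of -6.22 ± 0.68 (SE; adjusted p 0.00034). Hcn4, the pacemaker channel, was at 48.05, 54.7 and 58.97 in control 5w, 4.52, 1.65 and 3.04 in HFpEF, 1.35, 0.369 and 2.49 in control 9w and 3.17, 4.30 and 9.69 in untreated. Control 5w was high and all 9 other libraries were low, with untreated wholly above control 9w. Its effects were -4.11 at week 5 (adjusted p 0.00028) and 1.97 at week 9 (adjusted p 0.064), a difference of 6.08 ± 0.70 (SE; adjusted p 0.00039), and the class was reversed without control 9w 3 or untreated 2.

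Other lost genes with the smallest p were Gpd1l and Hif1an. Gpd1l, which makes a dehydrogenase that regulates the cardiac sodium channel, was at 39.9, 31.5 and 35.8 in control 5w, 8.83, 10.7 and 12.3 in HFpEF, 9.02, 8.36 and 10.1 in control 9w and 21.8, 12.02 and 12.2 in untreated. Hif1an, the asparagine hydroxylase that restrains hypoxia-inducible factor, was at 31.4, 23.2 and 23.6 in control 5w, 8.83, 6.24 and 8.57 in HFpEF, 7.22, 5.90 and 9.17 in control 9w and 16.4, 10.9 and 11.3 in untreated. Both were high in control 5w and low in HFpEF and control 9w, with untreated above control 9w. The differences were 2.49 ± 0.30 (SE; adjusted p 0.00051) for Gpd1l and 2.50 ± 0.32 (SE; adjusted p 0.00073) for Hif1an. Both genes were lost in the 12 fits without a library.

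Large differences were found for genes at low levels and for genes carried by few libraries. Sphkap, an anchor of protein kinase A in heart, was at 58.9, 55.01 and 63.2 in control 5w, 4.81, 4.22 and 8.40 in HFpEF, 4.96, 2.83 and 8.48 in control 9w and 33.2, 7.23 and 19.7 in untreated. Control 5w was above all other libraries, and untreated overlapped control 9w through untreated 2. The difference was 5.21 ± 0.72 (SE; adjusted p 0.00094), and the class was reversed without untreated 2. Gal, which encodes the neuropeptide galanin, was at 0.188, 0.310 and 0 in control 5w, 23.9, 0.458 and 8.93 in HFpEF, 33.8, 0.615 and 51.8 in control 9w and 0, 1.46 and 0 in untreated. HFpEF 1, HFpEF 3, control 9w 1 and control 9w 3 were high and the rest at or near 0, so disease and control overlapped at week 9. The difference was -11.67 ± 2.40 (SE; adjusted p 0.006). Gal was called in neither week without any 1 of control 5w 1, control 5w 2, control 5w 3 or HFpEF 1, and reversed without untreated 2. Akr1c3, a steroid reductase, differed by 5.09 ± 1.23 (SE; adjusted p 0.012) and was called in neither week without control 5w 1, control 5w 3, HFpEF 1 or HFpEF 3.

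**Figure D2:**
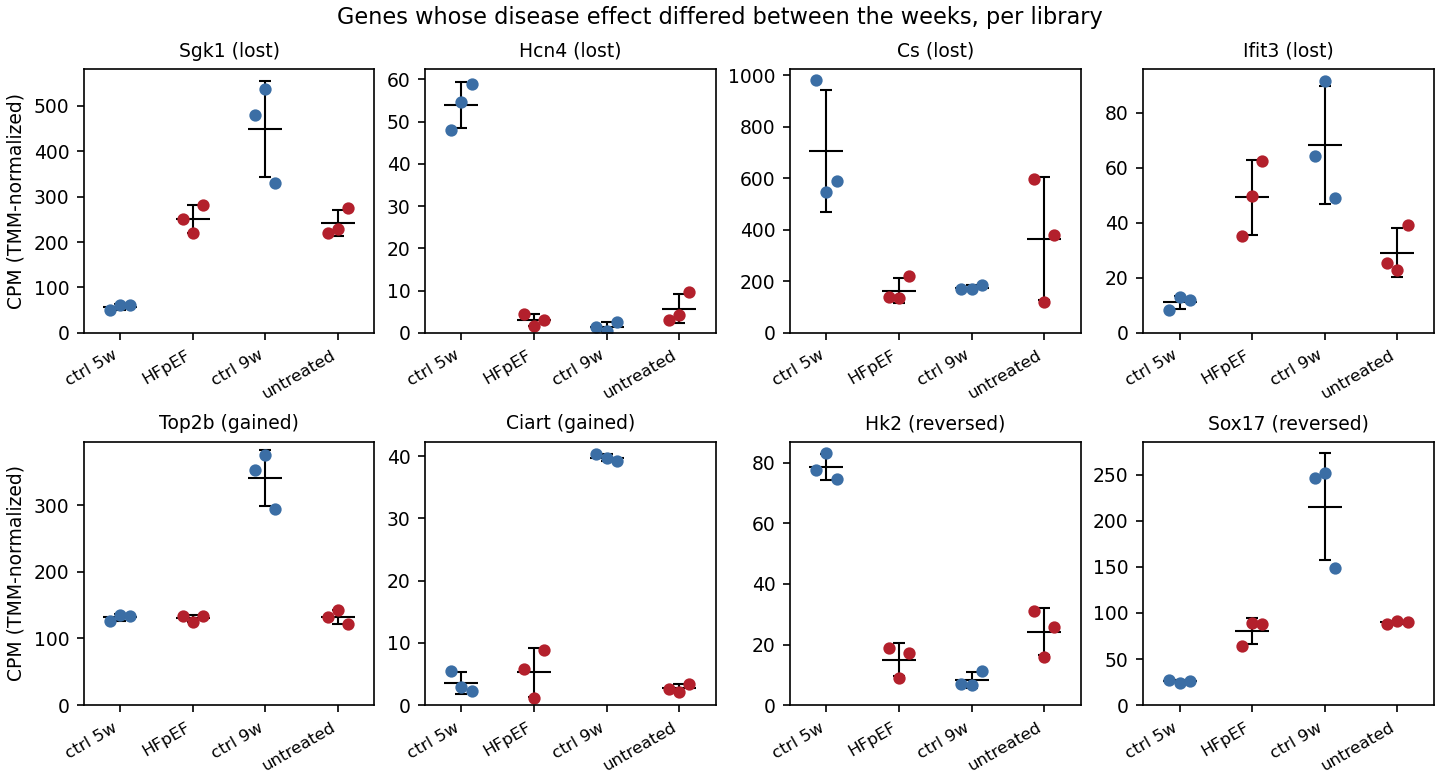
Normalized CPM of 8 genes in each library of control 5w, HFpEF, control 9w and untreated (3 libraries a group), with black bars for the mean and SD. Control 9w stands apart from the other groups for Top2b and Ciart, control 5w for Hcn4 and Hk2, and both controls from both disease groups, in opposite directions, for Sgk1 and Sox17.

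The medians of 4 mitochondrial and glucose lists were below 0 at week 5 and above 0 at week 9. The week-5 effect was called for 9 of 21 genes of the tricarboxylic acid cycle, 7 of 19 of glycolysis, 3 of 38 of oxidative phosphorylation and 1 of 28 of fatty acid use, beside 8.69% of all tested genes. Ventricular markers had medians of -1.19 and 0.31, and their part was not tested. Of 21 tested genes of the tricarboxylic acid cycle and pyruvate entry, 14 had a called positive difference and 0 a negative one. Over all tested genes 12.0% were called for the difference. The list medians were 1.83 for the difference, -1.11 at week 5 and 0.72 at week 9, against -0.02, 0.02 and 0.01 over all tested genes. The count was 7 without control 5w 1, HFpEF 1, HFpEF 2, control 9w 1, control 9w 2, untreated 1 or untreated 3. Cs, citrate synthase, was at 980.4, 549 and 590.2 in control 5w, 139, 135 and 220.1 in HFpEF, 169, 172 and 188 in control 9w and 598, 120.3 and 379.6 in untreated. Control 5w was high in all 3 libraries, HFpEF and control 9w were low, and untreated ranged from under control 9w in untreated 2 to the level of control 5w in untreated 1. Its effects were -2.10 at week 5 (adjusted p 0.0054) and 1.05 at week 9 (adjusted p 0.18), a difference of 3.15 ± 0.58 (SE; adjusted p 0.0036). Ogdh, the oxoglutarate dehydrogenase, was at 631, 309 and 358 in control 5w, 90.9, 85.3 and 135 in HFpEF, 88.1, 116 and 99.9 in control 9w and 305, 101 and 206 in untreated, in a similar order. Its effects were -2.06 at week 5 (adjusted p 0.0022) and 1.01 at week 9 (adjusted p 0.13), a difference of 3.07 ± 0.49 (SE; adjusted p 0.002). Suclg2, a succinate-CoA ligase, differed by 1.64 ± 0.36 (SE; adjusted p 0.0076). Without untreated 2 the class was reversed for Cs and Ogdh and gained for Suclg2, which was lost without HFpEF 3 and otherwise called in neither week.

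Glucose uptake and glycolysis gave 12 calls among 19 tested genes (12.0% over all tested genes), all positive. The medians were 1.32 for the difference, -0.94 at week 5 and 0.50 at week 9. The count was 7 without untreated 1. Besides Hk2 these included Gys1, muscle glycogen synthase, at 228, 129.9 and 131 in control 5w, 27.5, 44.4 and 57.5 in HFpEF, 60.9, 50.8 and 58.1 in control 9w and 109, 39.1 and 77.97 in untreated. The 3 control 5w libraries were the highest, and untreated 2 lay below control 9w, unlike untreated 1 and untreated 3. Its effects were -1.92 at week 5 (adjusted p 0.0024) and 0.41 at week 9 (adjusted p 0.54), a difference of 2.33 ± 0.46 (SE; adjusted p 0.0051). For Pygm, muscle glycogen phosphorylase, the difference was 2.79 ± 0.63 (SE; adjusted p 0.0096), and neither week was called without control 5w 1, HFpEF 1 or HFpEF 2, while the class was reversed without untreated 2.

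Oxidative phosphorylation had 4 calls among 38 tested genes, beside 12.0% over all tested genes, all positive, and 18 without untreated 2. Its medians were 0.87 (0.32 without control 5w 1 and 0.56 without untreated 1) for the difference, -0.60 at week 5 and 0.21 at week 9. Ndufs1, the largest complex I subunit, was at 1335, 731 and 799 in control 5w, 155, 149 and 344 in HFpEF, 219.6, 215 and 289 in control 9w and 883, 154 and 683 in untreated. Again untreated was split, with untreated 1 and untreated 3 near control 5w and untreated 2 below HFpEF 3 and control 9w. Its effects were -2.14 at week 5 (adjusted p 0.011) and 1.25 at week 9 (adjusted p 0.18), a difference of 3.39 ± 0.69 (SE; adjusted p 0.0057). Sdha of complex II and Uqcrc2 of complex III differed by 2.47 ± 0.51 (SE; adjusted p 0.006) and 2.33 ± 0.55 (SE; adjusted p 0.011). Without untreated 2 all of these were reversed, and Uqcrc2 was called in neither week without control 5w 1, HFpEF 1 or HFpEF 2.

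Fatty acid uptake and oxidation had 4 positive and 1 negative calls among 28 tested genes (12.0% over all tested genes), with medians of 1.27 (0.68 without control 5w 1) for the difference, -0.52 at week 5 and 0.75 at week 9. The count of calls was 3 without control 5w 1, HFpEF 1, HFpEF 2, control 9w 1, control 9w 2, untreated 1 or untreated 3, and 19 without untreated 2. Hadhb, of the mitochondrial trifunctional enzyme, was at 1547, 688 and 749 in control 5w, 276, 309 and 518 in HFpEF, 380.3, 311 and 406 in control 9w and 1909, 253 and 1107 in untreated. All HFpEF libraries were below control 5w, and untreated 1 and untreated 3 were above control 9w while untreated 2 was below it. Its difference was 3.01 ± 0.73 (SE; adjusted p 0.012), and that of Hadh, which acts on short chains, was 3.61 ± 0.87 (SE; adjusted p 0.012). Neither week was called for them with all libraries, but both were reversed without untreated 2 and lost without untreated 1. Hadh was also lost without control 5w 2 or HFpEF 3. The negative call was Cpt1a, the carnitine transferase isoform of liver, at 88.8, 60.1 and 62.5 in control 5w, 109, 97.9 and 114 in HFpEF, 144, 137 and 140.3 in control 9w and 103, 79.2 and 90.1 in untreated. Control 9w was above all other libraries, and the difference was -1.23 ± 0.24 (SE; adjusted p 0.0046).

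Genes under PPAR-alpha and of ketone use had 3 positive and 1 negative calls among 14 tested (12.0% over all tested genes). The medians were 0.76 (0.29 without untreated 1) for the difference, -0.61 at week 5 and 0.38 at week 9. The count was 2 without control 5w 1, HFpEF 2, control 9w 1, control 9w 2, control 9w 3, untreated 1 or untreated 3. Angptl4, an inhibitor of lipoprotein lipase that fasting and fatty acids induce, was at 1.22, 1.32 and 0.955 in control 5w, 71.3, 23.7 and 49.8 in HFpEF, 9.93, 11.8 and 7.98 in control 9w and 12.4, 19.2 and 19.8 in untreated. Control 5w was near 1 CPM and HFpEF far above it, while untreated was higher than control 9w in all 3 libraries by a small margin. Its effects were 5.36 at week 5 (adjusted p 5e-05) and 0.80 at week 9 (adjusted p 0.25), a difference of -4.56 ± 0.56 (SE; adjusted p 0.00055), and it was lost in all 12 fits. Oxct1, which lets heart burn ketones, was at 2138, 1462 and 1542 in control 5w, 433, 309 and 726 in HFpEF, 513, 535 and 732 in control 9w and 1258, 262 and 1317 in untreated. As for the genes above, control 5w was high, HFpEF and control 9w low, and untreated 2 apart from untreated 1 and untreated 3. Its effects were -1.81 at week 5 (adjusted p 0.014) and 0.67 at week 9 (adjusted p 0.45), a difference of 2.48 ± 0.63 (SE; adjusted p 0.015). Oxct1 was called in neither week without HFpEF 2 and reversed without untreated 2.

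Of 24 tested sarcomere and Z-disc genes 4 had positive and 1 negative calls, beside 12.0% over all tested genes. The list medians were 1.59 (1.05 without untreated 3) for the difference, -1.10 at week 5 and 0.31 at week 9. The count was 1 without HFpEF 2, control 9w 1, control 9w 2, untreated 1 or untreated 3, 2 without control 5w 1 or HFpEF 1, 3 without control 5w 3, 8 without HFpEF 3, and 12 without untreated 2. Actc1, the main actin of heart muscle, was at 24118, 11864 and 12578 in control 5w, 2639.7, 2410.0 and 7111 in HFpEF, 4514, 4873 and 5945 in control 9w and 11859, 2143 and 10082 in untreated. All control 5w libraries were above HFpEF, and untreated 2 lay below control 9w and the other untreated libraries above it. Its difference was 2.65 ± 0.76 (SE; adjusted p 0.025) and was not called without control 5w 1, HFpEF 1, HFpEF 2, control 9w 1, control 9w 2, untreated 1 or untreated 3. The ventricular markers, which share Actc1 and others with this list, gave 3 calls among 10 tested, with medians of 1.55 for the difference, -1.19 at week 5 and 0.31 at week 9, and 0 without control 5w 1, control 9w 1, control 9w 2, untreated 1 or untreated 3, 1 without control 5w 3, HFpEF 1, HFpEF 2 or control 9w 3, and 5 without untreated 2. Tcap, a Z-disc protein that caps titin, was the negative call, at 25.3, 22.6 and 32.2 in control 5w, 47.4, 95.9 and 101 in HFpEF, 210.4, 259.7 and 111 in control 9w and 96.01, 56.2 and 132 in untreated. All HFpEF libraries were above control 5w, and untreated overlapped control 9w. Its effects were 1.61 at week 5 (adjusted p 0.015) and -1.03 at week 9 (adjusted p 0.17), a difference of -2.64 ± 0.56 (SE; adjusted p 0.007), and it was lost in all 12 fits.

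Calcium handling gave 6 calls among 17 tested genes (12.0% over all tested genes), all positive and all lost. The medians were 1.02 for the difference, -1.24 at week 5 and 0.03 at week 9. The count was 3 without control 5w 1, HFpEF 1, HFpEF 2, control 9w 1, untreated 1 or untreated 3. Slc8a1, the sodium-calcium exchanger, was at 467, 400.0 and 412 in control 5w, 141, 79.5 and 179 in HFpEF, 154, 128 and 213 in control 9w and 269, 181 and 229.7 in untreated. Control 5w was far above HFpEF, and untreated overlapped control 9w. Its effects were -1.68 at week 5 (adjusted p 0.0022) and 0.46 at week 9 (adjusted p 0.41), a difference of 2.14 ± 0.40 (SE; adjusted p 0.0036). Casq2, the calcium store protein of heart, differed by 2.46 ± 0.53 (SE; adjusted p 0.0076), and Jph2, which anchors that store, by 3.55 ± 0.68 (SE; adjusted p 0.0041). Slc8a1 and Casq2 were lost in all 12 fits, and Jph2 was reversed without untreated 2.

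Ion channel genes had 6 positive and 2 negative calls among 23 tested (12.0% over all tested genes). Their medians were 0.89 for the difference, -0.94 at week 5 and -0.03 at week 9. The count was 4 without control 9w 1 or control 9w 2, and 5 without control 5w 1, control 5w 3, HFpEF 2 or untreated 1. After Hcn4, Kcnj2, the channel of the resting potential, was at 19.8, 12.9 and 16.2 in control 5w, 2.94, 5.32 and 5.00 in HFpEF, 7.67, 5.90 and 7.68 in control 9w and 11.7, 7.23 and 10.3 in untreated. HFpEF was below control 5w in all libraries, and untreated overlapped control 9w. Its effects were -1.88 at week 5 (adjusted p 0.0015) and 0.46 at week 9 (adjusted p 0.44), a difference of 2.34 ± 0.42 (SE; adjusted p 0.0031). For Gja1, the gap junction protein connexin 43, the difference was 2.47 ± 0.48 (SE; adjusted p 0.0047), and the class was reversed without untreated 2. Of 7 tested conduction tissue markers 1 was called positive and 1 negative, in sum 1 without control 5w 2, control 5w 3, HFpEF 2, control 9w 1, control 9w 2 or untreated 1. The positive call was Hcn4.

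PKC and G protein signaling genes had 8 positive calls and 1 negative among 33 tested (12.0% over all tested genes). Their medians were 0.06 (0.00 without control 5w 3 to 0.25 without HFpEF 1) for the difference, 0.06 at week 5 and 0.30 at week 9. Adra1a, an alpha-adrenergic receptor, was at 16.7, 13.6 and 14.1 in control 5w, 0.718, 1.56 and 2.23 in HFpEF, 3.72, 3.81 and 4.69 in control 9w and 6.01, 2.27 and 8.11 in untreated. Control 5w was higher than all other libraries, HFpEF was lowest, and untreated overlapped control 9w. Its effects were -3.31 at week 5 (adjusted p 0.00059) and 0.41 at week 9 (adjusted p 0.63), a difference of 3.72 ± 0.59 (SE; adjusted p 0.002). Prkce, a protein kinase C that the receptor activates, differed by 2.05 ± 0.35 (SE; adjusted p 0.0024). Prkacb, a catalytic subunit of protein kinase A, differed by 1.43 ± 0.26 (SE; adjusted p 0.0031). Adra1a and Prkce were lost and Prkacb was called in neither week in all 12 fits, but lost with the Eif2s3y term.

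Interferon response genes had 12 calls among 26 tested (12.0% over all tested genes), all negative. Their medians were -1.21 for the difference, 0.78 at week 5 and -0.60 at week 9, against -0.02, 0.02 and 0.01 over all tested genes. The call count stayed between 11 and 16 in all 12 fits that left out 1 library, and 11 of these genes were called in each of them. Ifit3, which binds viral RNA complexes, was at 8.20, 13.03 and 11.9 in control 5w, 35.4, 49.8 and 62.6 in HFpEF, 64.2, 91.6 and 49.2 in control 9w and 25.5, 22.9 and 39.2 in untreated. At week 5 disease was above control and at week 9 below it, without overlap, and HFpEF overlapped both week-9 groups. Its effects were 2.15 at week 5 (adjusted p 0.0011) and -1.23 at week 9 (adjusted p 0.057), a difference of -3.38 ± 0.45 (SE; adjusted p 0.00081). The class was reversed without control 5w 1, HFpEF 1 or control 9w 3. Ifit2, a gene of the same family, differed by -2.22 ± 0.31 (SE; adjusted p 0.00098). Irf9, the DNA-binding part of the interferon-activated complex, was at 31.5, 36.5 and 35.5 in control 5w, 55.2, 58.8 and 63.4 in HFpEF, 74.7, 88.7 and 60.7 in control 9w and 44.0, 45.8 and 47.7 in untreated. Here too disease was above control at week 5 and below it at week 9 without overlap, and the difference was -1.48 ± 0.20 (SE; adjusted p 0.00082). Irf7, the regulator that amplifies interferon production, was chosen after its values were seen and was at 43.8, 87.1 and 68.4 in control 5w, 85.3, 119 and 137 in HFpEF, 220.4, 245 and 129 in control 9w and 58.98, 58.1 and 79.1 in untreated, with control 9w above untreated in all libraries. Its difference was -2.37 ± 0.44 (SE; adjusted p 0.0037); it was gained with all libraries and called in neither week without control 9w 1, control 9w 2, untreated 1 or untreated 3.

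Antigen presentation had 1 positive and 5 negative calls among 25 tested genes (12.0% over all tested genes). The medians were -0.28 (-0.46 without control 5w 1 and -0.42 without HFpEF 1) for the difference, 0.60 at week 5 and 0.15 at week 9. With genes at 0 in a group set to their bound, the median difference was -0.44. The count was 3 without control 9w 1. RT1-S3, a class Ib molecule, was at 73.7, 95.2 and 95.5 in control 5w, 201, 221 and 192 in HFpEF, 308, 326 and 269 in control 9w and 177, 192 and 179 in untreated. Control 5w was lowest and control 9w highest, with HFpEF and untreated between them. Its effects were 1.22 at week 5 (adjusted p 0.0003) and -0.72 at week 9 (adjusted p 0.025), a difference of -1.93 ± 0.21 (SE; adjusted p 0.00034). RT1-CE10 was at 12.4, 9.00 and 9.23 in control 5w, 16.1, 17.1 and 17.1 in HFpEF, 44.2, 50.9 and 33.4 in control 9w and 15.6, 15.3 and 25.4 in untreated, high only in control 9w, and differed by -1.90 ± 0.32 (SE; adjusted p 0.0024). It was called in neither week without control 9w 1, control 9w 2 or untreated 1. Tap2, a subunit of the peptide transporter, differed by -1.33 ± 0.25 (SE; adjusted p 0.0037), and was lost without control 5w 1, control 5w 3 or HFpEF 1. Reads of RT1 genes may be shared among near-identical copies.

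Inflammatory cytokines and chemokines had 1 positive and 4 negative calls among 27 tested (12.0% over all tested genes), with medians of -0.19 (-0.31 without HFpEF 3 to 0.29 without HFpEF 1) for the difference, 0.72 at week 5 and 0.79 at week 9, and 2 without HFpEF 2, control 9w 1, untreated 1 or untreated 3, and 3 without control 5w 2, control 9w 2 or control 9w 3. Ccl5, a T cell attractant, was at 5.94, 4.42 and 8.04 in control 5w, 43.8, 49.1 and 41.5 in HFpEF, 28.8, 23.6 and 19.1 in control 9w and 39.4, 33.8 and 19.8 in untreated. Control 5w was lowest and HFpEF highest, and untreated overlapped control 9w. Its effects were 2.87 at week 5 (adjusted p 0.0014) and 0.38 at week 9 (adjusted p 0.67), a difference of -2.49 ± 0.60 (SE; adjusted p 0.012). Ccl21, a chemokine of lymphatic vessels, was at 26.1, 81.8 and 19.2 in control 5w, 865, 174 and 283 in HFpEF, 91.1, 107 and 67.0 in control 9w and 124, 39.6 and 52.9 in untreated. HFpEF was above all other libraries, with HFpEF 1 the highest by far. Its effects were 3.38 at week 5 (adjusted p 0.0072) and -0.29 at week 9 (adjusted p 0.85), a difference of -3.67 ± 0.95 (SE; adjusted p 0.016). Both were lost in all 12 fits, but Ccl21 was called in neither week with the Eif2s3y term. NF-kB targets, which include Nfkbia, had 3 calls among 17 tested, with medians of -0.14 (-0.23 without control 9w 2 to 0.17 without control 9w 3) for the difference, 0.46 at week 5 and 0.38 at week 9, and 1 without untreated 1. Macrophage and myeloid markers had 1 call among 16, and 0 without control 5w 3, HFpEF 1, control 9w 3, untreated 1 or untreated 3. T and B lymphocyte markers had 2 among 15, beside 12.0% over all tested genes. Their median was -0.58 (-0.81 without control 5w 3 to -0.11 without control 9w 1). The count was 1 when any 1 library other than HFpEF 1 was left out. The call that remained was Cd2, an adhesion molecule of T cells, at 3.86, 3.18 and 3.82 in control 5w, 14.2, 10.2 and 11.5 in HFpEF, 12.2, 9.84 and 9.37 in control 9w and 10.6, 8.20 and 6.43 in untreated, low in control 5w, with a difference of -2.04 ± 0.53 (SE; adjusted p 0.017).

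Endothelial markers had 6 calls among 12 tested (12.0% over all tested genes), all negative, and 3 without HFpEF 2, untreated 1 or untreated 3. Their medians were -1.07 for the difference, 0.77 at week 5 and -0.21 at week 9. Summed, they were at 2801, 2322 and 2618 in control 5w, 2838, 5546 and 4746 in HFpEF, 6233, 6550.1 and 5472 in control 9w and 4696, 5572 and 5128 in untreated. Control 5w and HFpEF 1 were low and the other 8 libraries high, and whether the amount of endothelium plays a part in the other endothelial results was not tested. Cldn5, a tight-junction protein, was at 38.8, 29.9 and 25.2 in control 5w, 96.9, 173 and 156 in HFpEF, 211, 309 and 133 in control 9w and 194, 226 and 230.2 in untreated. All HFpEF libraries were above control 5w, and untreated lay within the range of control 9w. Its effects were 2.18 at week 5 (adjusted p 0.0013) and -0.00 at week 9 (adjusted p 1), a difference of -2.19 ± 0.46 (SE; adjusted p 0.0068). Esam, another junction gene, differed by -1.66 ± 0.36 (SE; adjusted p 0.0079), and Pecam1, the general endothelial marker, by -1.26 ± 0.29 (SE; adjusted p 0.01). Pecam1 was highest in control 9w. Cldn5 and Esam were lost and Pecam1 was called in neither week in all 12 fits.

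Angiogenesis genes had 6 calls among 22 tested (12.0% over all tested genes), all negative. The count was 3 without control 5w 2, control 9w 2 or untreated 1. Their medians were -0.74 (-0.30 without HFpEF 2) for the difference, 0.40 at week 5 and -0.09 at week 9. Angpt2, a ligand that loosens vessels, was at 15.5, 13.6 and 15.2 in control 5w, 76.2, 38.2 and 58.2 in HFpEF, 37.8, 37.1 and 46.6 in control 9w and 40.3, 69.6 and 28.8 in untreated. At week 5 disease was above control without overlap, and at week 9 the groups overlapped. Its effects were 1.96 at week 5 (adjusted p 0.0019) and 0.19 at week 9 (adjusted p 0.79), a difference of -1.77 ± 0.45 (SE; adjusted p 0.015). Flt4, the receptor of lymphatic growth factors, differed by -1.59 ± 0.35 (SE; adjusted p 0.0089) and was called in neither week without control 5w 1 or HFpEF 1.

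Nitric oxide and cGMP genes, of interest because L-NAME blocks this pathway, had 2 positive and 5 negative calls among 25 tested. Over all tested genes 12.0% were called. The list medians were -0.41 for the difference, 0.22 at week 5 and -0.16 at week 9. The count was 3 without control 9w 1 or untreated 1, and 4 without control 5w 2, HFpEF 3 or untreated 3. Ddah1, which breaks down the body's own inhibitors of nitric oxide synthase, was at 65.95, 136 and 124 in control 5w, 20.7, 7.79 and 13.6 in HFpEF, 8.01, 5.90 and 16.1 in control 9w and 14.8, 7.63 and 10.9 in untreated. All control 5w libraries were far above the other 9. Its effects were -2.95 at week 5 (adjusted p 0.001) and 0.13 at week 9 (adjusted p 0.91), a difference of 3.08 ± 0.61 (SE; adjusted p 0.0049). Pde3a, a phosphodiesterase of heart and vessels, differed by 1.83 ± 0.36 (SE; adjusted p 0.0047) and, like Ddah1, was lost in all 12 fits. Npr1, the natriuretic peptide receptor that makes cGMP, was at 83.8, 74.7 and 77.3 in control 5w, 97.6, 209 and 142 in HFpEF, 209, 248 and 167 in control 9w and 115, 134 and 138 in untreated, with HFpEF above control 5w and untreated below control 9w, and differed by -1.61 ± 0.32 (SE; adjusted p 0.0053). Npr1 was called in neither week except without HFpEF 1 or with the Eif2s3y term, when it was lost. The renin-angiotensin and endothelin list had 0 calls in edgeR among 14 tested genes, 2 at an unadjusted p under 0.05, with medians of -0.24 (-0.45 without HFpEF 2 to 0.02 without HFpEF 1) for the difference, 0.36 at week 5 and 0.03 at week 9. It had 1 call without control 9w 2 and 2 without untreated 2 or by voom, and 0 by DESeq2.

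Of 17 tested clock genes 1 had a positive and 6 a negative call (12.0% over all tested genes). Their medians were -0.77 for the difference, 0.09 at week 5 and -0.91 at week 9. The count was 11 without HFpEF 2, and 4 without control 9w 1, control 9w 3 and untreated 2 together. With HFpEF 2 as the only HFpEF library it was 1. Ciart, a repressor within the clock, was at 5.56, 2.95 and 2.23 in control 5w, 5.88, 1.10 and 8.84 in HFpEF, 40.4, 39.7 and 39.2 in control 9w and 2.64, 2.11 and 3.48 in untreated. The 3 control 9w libraries were level with each other and far above all others. Its effects were 0.57 at week 5 (adjusted p 0.55) and -3.86 at week 9 (adjusted p 0.02), a difference of -4.43 ± 0.94 (SE; adjusted p 0.007). Per2 and Per3, period genes named after their values were seen, were at 75.5, 67.3 and 61.6 in control 5w, 66.2, 45.3 and 123 in HFpEF, 239.7, 286 and 210.1 in control 9w and 20.2, 45.8 and 29.4 in untreated and at 42.6, 29.02 and 29.9 in control 5w, 40.4, 21.8 and 46.0 in HFpEF, 130.2, 136 and 122 in control 9w and 25.0, 31.8 and 28.3 in untreated. Control 9w was highest for both without overlap, and untreated was below HFpEF for Per2 apart from untreated 2 and HFpEF 2, which were near equal. The differences were -3.14 ± 0.79 (SE; adjusted p 0.015) and -2.28 ± 0.56 (SE; adjusted p 0.013). Ciart, Per2 and Per3 were gained with all libraries and called in neither week without control 9w 1, control 9w 2, untreated 1 or untreated 3. Tef, an output gene named likewise, differed by -1.43 ± 0.36 (SE; adjusted p 0.015) and was called in neither week without control 9w 2. The positive call, Nfil3, a repressor of clock output named likewise, differed by 1.05 ± 0.30 (SE; adjusted p 0.026), and was not called without control 5w 1, HFpEF 3, control 9w 1, control 9w 3, untreated 1 or untreated 3, nor in either week without control 9w 2.

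Per1, the period gene that glucocorticoids induce, had a week-5 effect as well. It was at 54.9, 71.9 and 72.2 in control 5w, 283, 139 and 313 in HFpEF, 475, 554 and 424 in control 9w and 234, 282 and 255 in untreated. Disease and control did not overlap in either week, and HFpEF overlapped untreated. Its effects were 1.88 at week 5 (adjusted p 0.002) and -0.91 at week 9 (adjusted p 0.13), a difference of -2.80 ± 0.44 (SE; adjusted p 0.0018). It was lost in all 12 fits, but called in neither week with the Eif2s3y term. Wee1, a mitotic kinase under clock control, differed by -1.51 ± 0.37 (SE; adjusted p 0.012) and was called in neither week in all 12 fits. The labels give no hour at which hearts were taken, so the hour cannot be told apart from the group. The promoters of Ciart and Tef are shown because both hold the E-box CACGTG that clock activators bind, marked in capitals. It was in 6.65% of the 27457 promoters, in 9.12% of the 9760 tested genes with one, in 3 of the 14 tested clock genes with a promoter, and in 2 of the 6 called. Both are from RefSeq on GRCr8 and written 5′ to 3′, Ciart from the reverse strand at chr2:186112197-186112496 and Tef from the forward strand at chr7:115206577-115206876.
Ciart: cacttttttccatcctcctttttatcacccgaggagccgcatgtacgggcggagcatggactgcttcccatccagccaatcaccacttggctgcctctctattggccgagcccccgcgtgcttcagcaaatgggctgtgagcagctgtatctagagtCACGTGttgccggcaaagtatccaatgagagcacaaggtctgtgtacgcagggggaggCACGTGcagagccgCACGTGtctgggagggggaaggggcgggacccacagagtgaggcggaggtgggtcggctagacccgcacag
Tef: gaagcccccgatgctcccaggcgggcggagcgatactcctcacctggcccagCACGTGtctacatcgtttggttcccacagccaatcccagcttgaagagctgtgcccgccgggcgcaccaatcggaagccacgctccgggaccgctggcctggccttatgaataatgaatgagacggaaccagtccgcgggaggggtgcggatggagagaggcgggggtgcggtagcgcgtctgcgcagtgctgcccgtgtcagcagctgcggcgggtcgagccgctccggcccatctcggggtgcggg

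Immediate early genes, which hormones and handling switch on within minutes, had 1 positive and 9 negative calls among 26 tested. Over all tested genes 12.0% were called. The list medians were -0.33 (-0.61 without HFpEF 2 to -0.13 without HFpEF 3) for the difference, 1.26 at week 5 and 0.51 at week 9. The count stayed between 7 and 10 over the 12 fits without a library. Dusp1, a phosphatase that turns off stress kinases, was at 102, 91.2 and 86.9 in control 5w, 457, 296 and 513 in HFpEF, 569, 615 and 477 in control 9w and 449, 432 and 461 in untreated. Control 5w was low and all 9 other libraries were high, with HFpEF overlapping both week-9 groups. Its effects were 2.18 at week 5 (adjusted p 0.00015) and -0.31 at week 9 (adjusted p 0.44), a difference of -2.49 ± 0.28 (SE; adjusted p 0.00039). Zfp36, which degrades inflammatory messages, was at 45.5, 41.4 and 43.7 in control 5w, 258, 111 and 242 in HFpEF, 205, 205 and 186 in control 9w and 170.3, 191 and 165 in untreated. Again only control 5w was low, HFpEF 2 being the lowest of the other libraries. The effects were 2.23 at week 5 (adjusted p 0.00019) and -0.18 at week 9 (adjusted p 0.73), a difference of -2.40 ± 0.33 (SE; adjusted p 0.00094). Klf4, a transcription factor of endothelium, differed by -1.65 ± 0.27 (SE; adjusted p 0.0022). All of these were lost in each of the 12 fits, and the positive call was Nr4a2.

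Heat shock proteins had 4 calls among 26 tested (12.0% over all tested genes), all positive, with medians of 0.68 (0.44 without untreated 1) for the difference, -0.50 at week 5 and 0.11 at week 9, and 9 without untreated 2. Hspa9, the mitochondrial chaperone, differed by 2.72 ± 0.56 (SE; adjusted p 0.0058) and was reversed without untreated 2. Hspb8, a small chaperone of muscle, differed by 1.58 ± 0.41 (SE; adjusted p 0.016). It was called in neither week without HFpEF 1 or HFpEF 2. Dnajb4, a cochaperone, differed by 1.40 ± 0.36 (SE; adjusted p 0.016). The stress and unfolded protein response had 1 call among 27 tested, with medians of -0.21 (-0.28 without HFpEF 2 to -0.02 without HFpEF 1) for the difference, 0.19 at week 5 and -0.02 at week 9, and 2 without control 9w 2, control 9w 3 or untreated 2, and 3 without HFpEF 1 or HFpEF 2. It was Ddit4, an inhibitor of growth signaling that corticosteroids induce, at 30.6, 59.3 and 66.5 in control 5w, 197, 105 and 183 in HFpEF, 253, 249 and 186 in control 9w and 132, 113 and 112 in untreated. Disease was above control at week 5 and below it at week 9 without overlap, and the difference was -2.58 ± 0.48 (SE; adjusted p 0.0037).

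Antioxidant genes had 3 positive and 1 negative calls among 26 tested (12.0% over all tested genes), with medians of -0.04 (-0.11 without control 9w 1 to 0.24 without HFpEF 1) for the difference, -0.04 at week 5 and 0.07 at week 9, and 1 without untreated 1, and 7 without untreated 2. Gsta1, a glutathione transferase, was at 32.6, 35.5 and 30.1 in control 5w, 106, 106 and 91.6 in HFpEF, 85.2, 54.4 and 104 in control 9w and 56.9, 60.8 and 51.0 in untreated. All HFpEF libraries were well above control 5w, and untreated overlapped control 9w. Its effects were 1.63 at week 5 (adjusted p 0.00031) and -0.53 at week 9 (adjusted p 0.16), a difference of -2.15 ± 0.27 (SE; adjusted p 0.0007). The cell cycle list had 1 call among 28 tested, and 2 without control 5w 3, HFpEF 2 or untreated 2. It was Ccnd2, a cyclin, at 71.98, 126 and 131 in control 5w, 38.97, 14.3 and 34.2 in HFpEF, 16.7, 7.87 and 25.2 in control 9w and 48.6, 21.6 and 42.04 in untreated, highest in control 5w, with a difference of 3.07 ± 0.64 (SE; adjusted p 0.0066). Cytosolic ribosomal proteins had 1 call among 44 tested, with medians of -0.40 for the difference, 0.35 at week 5 and -0.01 at week 9, and 0 without control 5w 2, control 5w 3, HFpEF 2, control 9w 2 or untreated 3, and 2 without control 5w 1 or untreated 2.

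Collagens and matrix genes had 3 calls among 33 tested (12.0% over all tested genes), with medians of 0.82 (0.39 without control 5w 2 to 1.44 without HFpEF 1) for the difference, -0.34 at week 5 and 0.39 at week 9. The count was 0 without control 5w 2, control 5w 3, control 9w 1, control 9w 2, untreated 1 or untreated 2, 1 without HFpEF 3, control 9w 3 or untreated 3, and 11 without control 5w 1. Fibroblast markers summed to 8474, 45239.7 and 37054 in control 5w, 21341, 18526 and 18328 in HFpEF, 9050.0, 6240.1 and 9099 in control 9w and 9217, 16662 and 7973 in untreated. Control 5w 1 was far below control 5w 2 and control 5w 3, which were the highest libraries, and the counts without it are given here. Among 12 fibroblast markers edgeR called 0, with 1 at an unadjusted p under 0.05, 2 calls without control 5w 1, 0 by DESeq2 and 3 by voom, and medians of 0.60 (-0.08 without untreated 2 to 0.94 without control 5w 1) for the difference, 0.06 at week 5 and 0.53 at week 9. The list of TGF-beta ligands, receptors and targets had 0 calls among 17 tested genes in edgeR, with 6 at an unadjusted p under 0.05, 1 call without HFpEF 2, 2 without untreated 2 or by DESeq2 and 3 by voom. Its medians were 0.06 (-0.09 without control 9w 2 to 0.17 without control 9w 3) for the difference, 0.13 at week 5 and 0.02 at week 9. Fetal and hypertrophy genes had 1 positive and 1 negative call among 13 tested, beside 12.0% over all tested genes. Their medians were 1.05 (0.65 without HFpEF 2 and 0.63 without untreated 3) for the difference, -1.06 at week 5 and -0.04 at week 9. The count was 0 without untreated 1 or untreated 3, and 1 without control 5w 1, HFpEF 1, HFpEF 2, control 9w 1, control 9w 2 or control 9w 3. Smooth muscle and pericyte markers had 1 call among 10, and 0 without control 5w 1, HFpEF 1, control 9w 2 or untreated 1. Skeletal muscle markers had 1 call among 8, and 0 without control 5w 1, HFpEF 1, HFpEF 2, control 9w 1, control 9w 2, control 9w 3, untreated 1 or untreated 3, and 2 without untreated 2.

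Erythroid markers had 6 calls among 9 tested (12.0% over all tested genes), all negative, and 5 to 7 calls in the 12 fits without a library. Their medians were -3.57 for the difference, 0.86 at week 5 and -2.59 at week 9. Summed, and led by Hbb, they were at 1825, 1073 and 1689 in control 5w, 1921, 1532 and 4178 in HFpEF, 1647, 1933 and 1309.7 in control 9w and 243, 225 and 321 in untreated. All 3 untreated libraries were far below the other 9, and HFpEF 3 was the highest. Hbb-bs, a beta globin, was at 86.96, 26.6 and 47.3 in control 5w, 112, 84.1 and 201 in HFpEF, 92.2, 95.2 and 70.2 in control 9w and 9.07, 8.28 and 13.3 in untreated. Untreated was low without overlap, and HFpEF overlapped control 5w. Its effects were 1.30 at week 5 (adjusted p 0.12) and -3.07 at week 9 (adjusted p 0.028), a difference of -4.38 ± 0.85 (SE; adjusted p 0.0047); it was called in neither week without control 9w 1, control 9w 2, untreated 1 or untreated 3. Hba-a1, an alpha globin, was at 40.98, 12.03 and 14.6 in control 5w, 93.6, 95.4 and 247 in HFpEF, 50.6, 58.2 and 42.4 in control 9w and 7.17, 6.66 and 11.4 in untreated. Disease was above control at week 5 and below it at week 9 without overlap, and the difference was -5.28 ± 0.92 (SE; adjusted p 0.0028), reversed without control 5w 1. Hbb-b1 differed by -4.12 ± 0.88 (SE; adjusted p 0.0072) and was gained without control 5w 1. Globin genes are near-identical copies, so their separate levels are uncertain, and the part of blood left in the tissue was not tested.

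Adipocyte markers had 3 calls among 7 tested (12.0% over all tested genes), all negative. Their medians were -1.82 (-1.06 without HFpEF 1 and -0.06 without control 9w 3) for the difference, 1.42 at week 5 and 0.03 at week 9. They summed to 1121, 665 and 758 in control 5w, 886, 3457 and 2389 in HFpEF, 3068, 4173 and 1704 in control 9w and 2100.4, 1647 and 2332 in untreated, led by Fabp4. Adipoq, Lep and Plin1, which define fat cells, were among the markers at 0 in some libraries. Lipe, hormone-sensitive lipase, was at 76.4, 64.1 and 74.2 in control 5w, 139, 359 and 313 in HFpEF, 314, 411 and 182 in control 9w and 266, 235 and 269 in untreated. All HFpEF libraries were above control 5w, and untreated lay within the range of control 9w. Its effects were 1.92 at week 5 (adjusted p 0.0026) and -0.24 at week 9 (adjusted p 0.75), a difference of -2.15 ± 0.46 (SE; adjusted p 0.0076), and that of Pparg, the regulator of fat storage, was -1.82 ± 0.42 (SE; adjusted p 0.0099). Both were lost in all 12 fits. Atrial markers had 1 positive and 2 negative calls among 12 tested (12.0% over all tested genes). Their medians were 0.36 (-1.70 without untreated 2 to 1.22 without control 9w 3) for the difference, -0.94 at week 5 and -0.54 at week 9. Kcna5, an atrial potassium channel, was at 4.99, 2.72 and 3.66 in control 5w, 5.10, 6.14 and 18.04 in HFpEF, 42.5, 40.1 and 19.9 in control 9w and 7.91, 7.63 and 7.90 in untreated, highest in control 9w, which did not follow Myl4. It differed by -3.49 ± 0.81 (SE; adjusted p 0.011) and was called in neither week except without HFpEF 3, when it was gained. Nr2f2, a venous and atrial transcription factor, differed by -1.20 ± 0.29 (SE; adjusted p 0.013).

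Bone, cartilage and valve markers had 2 calls among 11 tested (12.0% over all tested genes), with medians of -3.00 (-0.65 without HFpEF 1) for the difference, 1.51 at week 5 and 0.25 at week 9, and 1 without control 5w 1, control 5w 2, control 5w 3, HFpEF 1, control 9w 1, control 9w 2, control 9w 3, untreated 1 or untreated 3. Their sum was 73.02, 209 and 179.6 in control 5w, 2621, 153 and 335 in HFpEF, 363, 146 and 444 in control 9w and 142, 312 and 166 in untreated, with HFpEF 1 far above every other library. Cytl1, a cytokine of cartilage and valve, was at 24.4, 14.97 and 15.8 in control 5w, 259, 88.03 and 76.2 in HFpEF, 304, 90.8 and 358 in control 9w and 69.9, 215 and 51.3 in untreated. Control 5w was lowest, and untreated overlapped control 9w, as control 9w 2 was low and untreated 2 high for their groups. Its effects were 2.94 at week 5 (adjusted p 0.0062) and -1.16 at week 9 (adjusted p 0.29), a difference of -4.10 ± 0.82 (SE; adjusted p 0.0052); it was reversed without untreated 2. Comp, a cartilage matrix protein at 1.51, 2.56 and 1.19 in control 5w, 402, 3.30 and 29.4 in HFpEF, 2.59, 2.34 and 3.09 in control 9w and 1.58, 3.57 and 3.48 in untreated, rested on HFpEF 1 and HFpEF 3, and its difference was -6.24 ± 2.11 (SE; adjusted p 0.049). Among the fits that left out 1 library, Comp was called only without HFpEF 2 or HFpEF 3. Mesothelium and epicardium markers had 3 calls among 8 tested, all negative, with a median of -2.29, or -1.49 with genes at 0 in a group set to their bound, and 0 without control 5w 3 or untreated 1, and 1 without control 5w 1, control 5w 2, HFpEF 1, HFpEF 3, control 9w 3 or untreated 3. Schwann and nerve markers had 1 call among 10 tested, with medians of -1.66 (-0.23 without HFpEF 1) for the difference, 2.04 at week 5 and 0.35 at week 9, and 0 without control 5w 1, control 9w 1, control 9w 2 or untreated 1, 2 without HFpEF 3, and 3 without HFpEF 2 or untreated 2. Their sums were 209, 433 and 371 in control 5w, 924, 309 and 379 in HFpEF, 267, 164 and 275 in control 9w and 175, 412 and 181 in untreated, again highest in HFpEF 1, and the part of valve, nerve or surface tissue in the other differences was not tested.

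**Figure D3:**
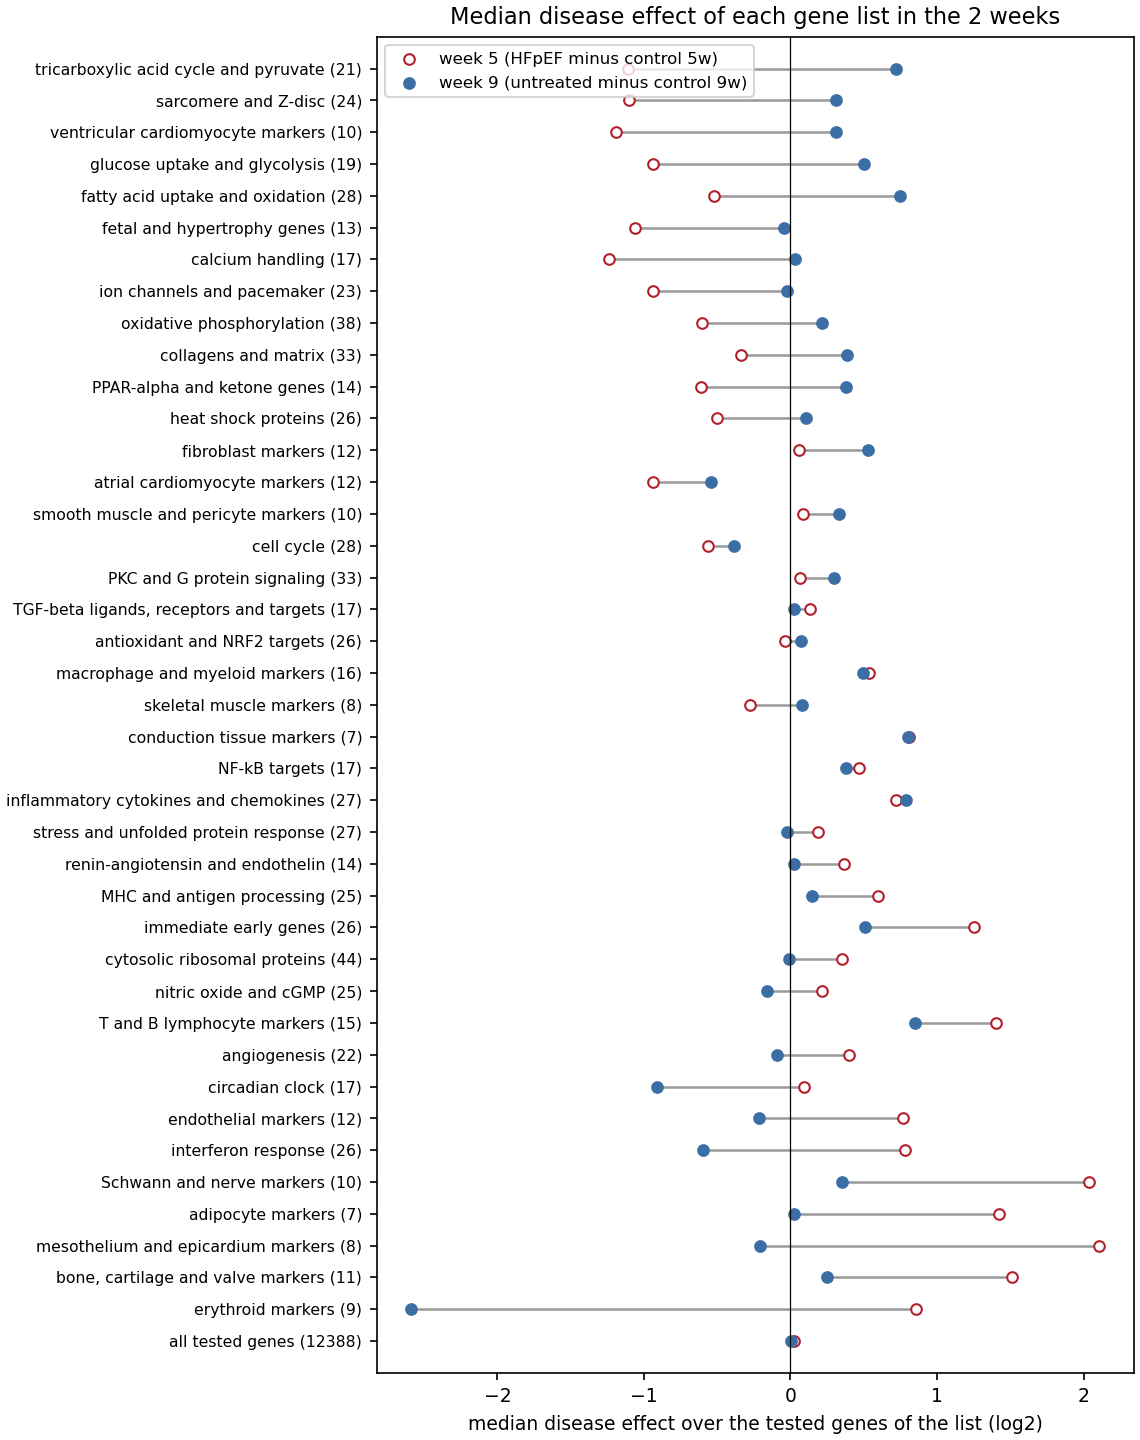
Median disease effect over the tested genes of each list at week 5 (open circles) and week 9 (filled circles), on the log2 scale, with the number of tested genes after each name and all tested genes at the bottom. The medians of metabolic and contractile lists lie left of 0 at week 5 and at or right of 0 at week 9, while those of the interferon, endothelial and erythroid lists lie right of 0 at week 5 and left of 0 at week 9.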

How the data were processed

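The values were read counts per gene, as deposited by the authors, whose processing notes name Trim Galore, FastQC, HISAT2 and HTSeq on the rn6 genome. The strand and overlap settings of counting are not given. Gene names, overlaps between genes and promoters came from RefSeq on GRCr8. Reads of near-identical genes (globins, RT1) are of uncertain origin.

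Genes were kept by filterByExpr, libraries scaled by TMM, and 1 model with 7 groups and 19 libraries fitted in edgeR 4.0.16 (R 4.3.3) with its quasi-likelihood F test. The 7 EMPA and PFD libraries entered the filter, the scaling and the shared spread, but no disease or week effect. Adjusted p are Benjamini-Hochberg over 12388 genes, and p-values measure spread between samples. Alternatives used limma 3.58.1 and DESeq2 1.42.0. The scripts were tested on simulated data with known changes. A gene with a group at 0 counts has a bound against a floor of 3 counts per library, which covers counting error only.

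Named genes had a called difference. Genes chosen by size or class needed a mean of at least 1 CPM and, in at least 1 week, disease libraries wholly above or below control. For list genes neither was needed. Chosen by size were the 8 with the largest difference each way. By class, the 4 with the smallest p in each direction were chosen, and by list up to 3 called genes with the smallest p. Of these Irx1, Irx2, Epcam, Cldn11, Serpina3n, Msln, Slc16a1, Myom1, Rcan1, Mt2A, Thbs2, Col14a1, Il15, Sod2, Vcam1, Prdx3, Rplp2, Ryr2, Irx4, Kcnj3, Tbx3, Rgs5, Lyve1, Ncr1, Prx, Wt1, Krt18 and Ckm, each not called without at least 1 library, stand in the tables only. Exceptions are genes of the label checks, the marker of highest mean in each list, and genes named after their values were seen. The 27 gene lists and 14 marker lists and their members were chosen with earlier results of these data known. Leaving out the 3 libraries with the most Myl4 was chosen after seeing the data.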

Additional observations from a re-analysis of the deposited data

Results flagged for a closer look

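The tested difference between the week effects was called for 1489 genes. For the 12 genes whose disease effect was called in opposite directions at week 5 and week 9, it was -6.07 for Adh1, -2.06 for Adm, -2.95 for Dpep1, -2.47 for Fmo2, 3.91 for Hk2, -2.66 for Hyal3, -2.51 for Mgst2, -3.39 for Nfkbia, -2.28 for Slc28a2, -2.89 for Sox17, -2.91 for Syndig1 and -3.44 for Tinagl1. In all 12 the week effect was larger in size in controls than in diseased rats. For Adh1 the 2 were near equal, at 3.04 in controls and -3.03, not called, in diseased rats. All 3 untreated libraries and HFpEF 1 and HFpEF 3 had 0 counts of Eif2s3y despite the label male, and the week-9 disease effect cannot be told apart from this. The week-5 effect cannot be fully told apart from it either.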

How the results depend on the processing

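Leaving out 1 library at a time moved the number of genes called for the difference of disease effects from 1489 to between 877 (without untreated 1) and 2241 (without untreated 2). The week-5 effect had 730 to 1228 calls and the week-9 effect 7 (without control 9w 2) to 413 (without untreated 2). Lost effects numbered 496 to 792, gained 6 (without control 9w 2) to 213 (without untreated 2), and reversed 1 (without control 9w 1, control 9w 2 or untreated 1) to 146 (without untreated 2). The week effect had 1206 to 2025 calls in controls and 4 (without HFpEF 1) to 933 (without untreated 2) in disease.

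Judged by adjusted p alone, edgeR called 2473 genes for the difference of disease effects, 2478 for the disease effect at week 5, 220 for the disease effect at week 9 and 4276 for the week effect in controls, with 1604 lost disease effects, 125 gained disease effects and 55 reversed disease effects. DESeq2 gave 297 for the week-9 effect, 149 gained, 61 reversed and 441 for the week effect in disease. For voom with sample quality weights the difference had 2559 calls, the week-9 effect 1037, gained 495, reversed 266 and the week effect in disease 1076. A term for libraries without Eif2s3y gave 410 lost, 2 for the week-9 effect, 1 gained, 0 reversed and 259 for the week effect in disease. Without both HFpEF 1 and untreated 2 the week-9 effect had 468 calls, with 239 gained, 146 reversed and 104 for the week effect in disease. Counts with HFpEF 2 as the only HFpEF library rest on 1 sample in that group, so their spread comes from the other groups. Leaving out control 9w 1, control 9w 3 and untreated 2 likewise left control 9w with control 9w 2 alone. Without control 9w 1, control 9w 3 and untreated 2, the 3 libraries with the most Myl4 and an alternative chosen after seeing the data, 635 were called for the week effect in disease. The cause of these shifts was not tested.

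With the replicate number as a replicate block the week-9 effect had 62 calls, with 43 gained, 6 reversed and 8 for the week effect in disease. Of 18 pairs of libraries with the same number 5 correlated over 0.1 after group means were removed (-0.53 to 0.49), and 3 of 12 libraries correlated best with one of their own number.

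No gene chosen by rule changed sign in any alternative (0 of 112). The call was lost by 24 of the 112 with HFpEF 2 alone, 21 with only the 12 libraries, 14 with the replicate block, 17 with the Eif2s3y term, 19 without the 3 Myl4 libraries, 27 without untreated 1, 22 without untreated 3, 20 without control 9w 1, 3 with voom and 0 with DESeq2.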
